A study of Mus musculus with 30 samples.

Results

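Parous mammary basal cells that lay beside Rank-deleted luminal cells were compared with parous basal cells of control glands. The comparison held 8 of the 30 libraries of the series, all those of basal cells from parous glands, with 4 K8iΔRank mice (787, 794, 798 and 830) and 4 K8imTmG mice (532, 534, 557 and 558), and it took in every gene of the table. K8iΔRank mice carried K8rtta and Tet-O-Cre transgenes, floxed Rank and the Rosa mT/mG reporter. K8imTmG mice carried the same transgenes and reporter with Rank intact, so both groups received doxycycline and expressed Cre. Doxycycline was given at 1 mg/ml in the drinking water from week 3 to week 8 of age per the labels, while the methods give a later start. The Krt8 promoter drives Cre in luminal cells, where recombination removes Rank and switches the reporter from tdTomato to GFP, and the basal cells were therefore meant to keep Rank. Basal cells were sorted as CD49f high and CD24 low, which separates cells by surface protein and not by the reporter. Parous glands were taken after a pregnancy and involution. Per the study's methods control dams nursed before their pups were removed, whereas K8iΔRank dams lost their litters at the start of lactation, so genotype and lactation history cannot be told apart. Each library came from 1 mouse.

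The mammary epithelium is a bilayer. Luminal cells line the lumen and include hormone-sensing cells, which make the ligand Rankl (Tnfsf11) under progesterone, and progenitors that give rise to milk-producing alveoli. Basal cells form a contractile outer layer around them and are held to their own lineage in the adult gland by signals from luminal cells. Rank (Tnfrsf11a) is a receptor of the tumour necrosis factor family. It signals through Traf adaptors, Traf6 among them, to the canonical and non-canonical arms of NF-κB. Osteoprotegerin (Tnfrsf11b) is the soluble decoy of this pathway. Prolactin, the other main hormone of alveolar development, acts through its receptor Prlr and the transcription factor Stat5, whose targets include the feedback inhibitor Cish and the caseins.

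Depth differed between the groups. The 4 K8iΔRank libraries held 1844364 to 2996649 reads and the 4 controls 450064 to 1365008, so that 1 read was worth 0.429 to 0.797 normalized counts in the former and 1.14 to 3.98 in the latter. Library composition differed as well, with 17.5 to 27.2% of reads in the 100 highest genes of K8iΔRank libraries and 29.9 to 37.8% in the controls. Clec2d, a lectin-type receptor ligand, split the K8iΔRank libraries, with 4.29 and 4.84 normalized counts in mice 787 and 798 and 78.9 and 68.3 in mice 794 and 830. All 4 controls lay on the high side, at 72.8 to 199. The libraries of mice 787 and 798 also had the lowest share of reads in the 100 highest genes, 18.0 and 17.5%. Values are therefore given for all 4 K8iΔRank libraries and, for called genes and most lists, for the 2 with Clec2d above 30 alone, and what separates the 2 kinds of library was not tested. A list of 10 genes chosen earlier on these data because they follow the Clec2d split had a median log2 fold change of -2.96 in mice 787 and 798 and -0.58 in mice 794 and 830, and 1 of its genes, Sumo2 (log2 fold change -2.15, SE 0.46, limma adjusted p = 0.0499, and -1.16 with Clec2d above 30), is among those called below.

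The libraries carried a basal signature. Summed over 28 basal and myoepithelial markers, normalized counts ran from 24117 to 29311 in K8imTmG and from 19093 to 22101 in K8iΔRank basal libraries, against 328 to 577 in the parous luminal libraries. Krt5, a keratin of the basal layer, had 1147, 1244, 1461 and 1154 normalized counts in mice 532, 534, 557 and 558 and 975, 993, 1043 and 811 in mice 787, 794, 798 and 830. Both Krt5 (log2 fold change, K8iΔRank minus K8imTmG, -0.39, SE 0.19, limma adjusted p = 0.245) and the smooth muscle actin gene Acta2 (-0.63, SE 0.24, adjusted p = 0.154) missed the threshold of 0.05, although the groups did not overlap in either. Krt14 (-0.39, SE 0.20, adjusted p = 0.263) and the basal transcription factor Trp63 (-0.07, SE 0.20, adjusted p = 0.859) also did not pass. Other basal genes had higher values in K8iΔRank without passing. The hemidesmosome integrin gene Itgb4 had 60.7, 42.8, 67.7 and 73.9 normalized counts in the controls and 117, 86.1, 92.4 and 95.7 in K8iΔRank, without overlap (0.68, SE 0.22, adjusted p = 0.11), and Krt17 had a log2 fold change of 0.78 (SE 0.27, adjusted p = 0.128) with groups that overlapped.

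Rank itself was read at similar levels in both genotypes. Tnfrsf11a (chr1:105708358-105777170, plus strand, GRCm39) had 75.4, 50.8, 55.7 and 69.4 normalized counts in the controls and 81.1, 63.8, 68.7 and 78.1 in K8iΔRank basal cells (log2 fold change 0.22, SE 0.21, adjusted p = 0.546), and the groups overlapped. The counts come from the 3′ end of transcripts and need not fall when upstream exons are removed, so they do not by themselves check the deletion. The decoy Tnfrsf11b did not differ beyond its spread (-0.05, SE 0.40, adjusted p = 0.952). Tnfsf11, encoding Rankl, had no read in any control basal library and at most 3.10 normalized counts in K8iΔRank, below the level needed for testing, while parous luminal libraries reached 78.8. In the controls 1 read was worth 1.14 to 3.98 normalized counts, so such a level could go unread there.

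Promoter sequences are shown first for genes picked by name from the Stat5 and NF-κB pathways, of which only Cish was called below. For each, a start with the motif was taken, so these matches were fixed by the choice and group no genes. Stat5 dimers bind the palindrome TTCNNNGAA, and the NF-κB motif was taken as GGG and TTCC set apart by any 3 bases. Both were searched on both strands of 300 bases around each start listed in RefSeq promoter sequence, and the windows are given on the GRCm39 build with the matched letters in capitals. Where matches overlap, all their letters are in capitals. RefSeq starts can differ from the ends of the annotated gene: the Prlr window lies inside the gene (chr15:10177258-10349959, plus strand), and the Cish and Nfkb2 windows also lie within their annotated genes.
Cish, chr9:107173855-107173880, plus strand: gttTTCCTGGAAagTTCTTGGAAatc
Prlr, chr15:10223875-10223897, plus strand: aaatgagTTCTAGGAAtaaggga
Csn2, chr5:87847362-87847384, minus strand: cgtagacTTCTTGGAAttgaagg
Nfkb2, chr19:46293131-46293154, plus strand: cgtcacgGGAATTCCCCccctcgg
Nfkbia, chr12:55539445-55539468, minus strand: ctggcttGGAAATTCCCcgcgcct
The Stat motif stood in 2726 of 32851 promoters of the table (8.30%) and in 669 of 8297 promoters of genes tested (8.06%). Among genes that were higher in K8iΔRank basal cells it was found in 5 of the 27 with a promoter sequence (18.5%), namely Arid5b, Cish, Klf9, Syn2 and Utp14b, and among the lower genes in 3 of 47 (6.38%). The NF-κB motif stood in 5.56% of all promoters, 7.35% of those tested, 1 of 27 higher genes (3.70%) and 7 of 47 lower genes (14.9%). These matches are a description of the letters and not a measure of binding.

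The transcriptome of parous basal cells differed between the genotypes at 96 of 10592 genes tested (0.906%) with limma. Of these, 33 genes (0.312%) were higher and 63 (0.595%) were lower in K8iΔRank. They comprised 86 protein-coding genes, 6 long non-coding RNAs, all lower, 1 processed pseudogene, 1 transcript not yet assigned a class and 2 genes with no single entry in the annotation. All 96 had groups that did not overlap, as did 1274 of the genes tested (12%). The higher genes had a median log2 fold change of 1.37 (range 0.90 to 2.15) and the lower genes of -1.43 (range -2.83 to -0.91). Over all genes tested the median was 0.06 and 53.8% lay above 0. Groups did not overlap for 631 genes with higher values in K8iΔRank (5.96%) and 643 with lower ones (6.07%). DESeq2, run on reads recovered from the normalized counts, called 645 genes (6.09%, of which 2.22% of genes tested were higher and 3.87% lower), and all 96 were among them, while 64 of the 96 were called by edgeR.

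Restricting K8iΔRank to the 2 libraries with Clec2d above 30 ended every limma call, with 0 of 10416 genes past the threshold and 905 at an unadjusted p under 0.05. On the same 6 libraries DESeq2 called 135 genes, 29 higher and 106 lower, 60 of them among the 96, and edgeR called 0, with 1119 at an unadjusted p under 0.05. These fits also held fewer K8iΔRank libraries, and the part of that in the loss of calls was not tested. In those 2 libraries the median log2 fold change of the 33 higher genes was 1.30 (range 0.80 to 2.17), against 1.42 in the 2 libraries below 30, and that of the 63 lower genes was -1.15 (range -2.91 to -0.79) against -1.71. Because the 96 genes were all chosen with groups that do not overlap, their direction within either pair of libraries was fixed by the choice. Both pairs took part in that choice, so the sizes within them are not a separate check. With all 8 libraries, the count fell to 0 without control mouse 532 or 534 or without K8iΔRank mouse 787, 798 or 830, to 3 without control mouse 557, and rose to 1050 without K8iΔRank mouse 794.

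**Figure D1:**
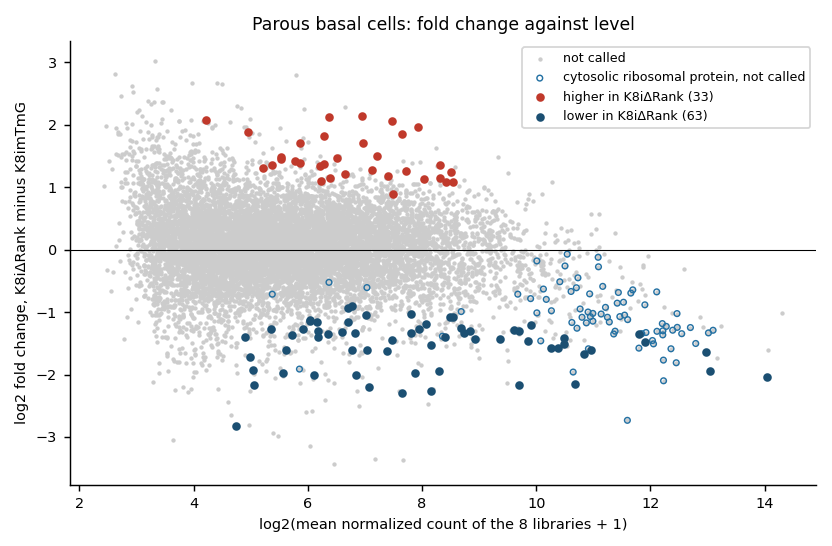
Each point is a gene tested in parous basal cells, with the log2 of its mean normalized count plus 1 over the 8 libraries on the horizontal axis and its log2 fold change (K8iΔRank minus K8imTmG) on the vertical axis. Red points are the 33 genes called higher, dark blue points the 63 called lower, and open blue circles the cytosolic ribosomal protein genes that were not called, nearly all of which lie among the highly expressed genes below 0.

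The genes called higher had varied roles, and those with the lowest adjusted p are described by role. Tenm2, a teneurin cell adhesion receptor (chr11:35897483-37126791, minus strand), had 54.4, 45.5, 87.6 and 83.0 normalized counts in the controls and 350.5, 178, 329 and 280.4 in K8iΔRank. Every K8iΔRank library was above every control (log2 fold change 2.06, SE 0.27, adjusted p = 0.016, and 1.76 with Clec2d above 30). Slc12a2, the basolateral sodium, potassium and chloride cotransporter, rose from 33.5, 50.8, 27.9 and 72.8 to 181, 183, 264 and 166 (2.15, SE 0.29, adjusted p = 0.016, and 1.98 with Clec2d above 30), again without overlap. Slc12a2 is a gene of luminal cells too, with 289 to 2154 normalized counts in control luminal libraries and 1236 to 4666 in K8iΔRank ones. Cldn4, a tight junction claudin (chr5:134973973-134975788, minus strand), had 6.28, 8.02, 3.98 and 6.83 in the controls and 28.7, 34.3, 25.5 and 27.9 in K8iΔRank (2.07, SE 0.34, adjusted p = 0.035). Its difference was as large with Clec2d above 30 (2.17) as below (1.98). In the controls these Cldn4 values amount to 1 to 6 reads a library, and luminal libraries held 274 to 667 normalized counts. Celsr2, an atypical cadherin of planar polarity, was higher by 1.46 (SE 0.26, adjusted p = 0.0436, and 1.28 with Clec2d above 30).

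Some of the higher genes act in the nucleus. Arid5a, a DNA- and RNA-binding protein that stabilises inflammatory transcripts, had 18.8, 29.4, 31.9 and 36.4 normalized counts in the controls and 179, 70.1, 169.9 and 121 in K8iΔRank (log2 fold change 2.12, SE 0.31, adjusted p = 0.0265). The 2 libraries with low Clec2d were the highest, so the Arid5a difference was 2.58 in them and 1.67 in the others. Its paralogue Arid5b rose by 1.36 (SE 0.24, adjusted p = 0.0436, and 1.18 with Clec2d above 30). Nrip1, a corepressor of estrogen receptor and other nuclear receptors, had 174, 118, 187 and 177 in the controls and 387, 299.7, 413 and 326 in K8iΔRank (1.13, SE 0.21, adjusted p = 0.0436, and 0.95 with Clec2d above 30). Trim24, a chromatin reader that binds nuclear receptors, had 23.02, 21.4, 15.9 and 21.6 against 50.2, 56.6, 55.0 and 47.1 (1.32, SE 0.23, adjusted p = 0.0436), with almost equal values above and below the Clec2d limit (1.30 and 1.33).

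The remaining leading genes had varied roles. Syn2, a synapsin of vesicle membranes, had a narrow spread in both groups, with 20.9, 26.7, 19.9 and 21.6 normalized counts in the controls and 61.3, 55.0, 57.7 and 59.5 in K8iΔRank (log2 fold change 1.36, SE 0.22, adjusted p = 0.035). Smim3, a small membrane protein, rose from 115, 107, 115 and 151 to 304, 229, 277 and 370.4 (1.26, SE 0.20, adjusted p = 0.035). Gcc1, a golgin of the trans-Golgi network, rose by 1.85 (SE 0.33, adjusted p = 0.0436). The small GTPase gene Rab20 had 29.3, 34.8, 39.8 and 71.7 in the controls and 112, 85.3, 101 and 142 in K8iΔRank (1.37, SE 0.28, adjusted p = 0.0475). Bcl2l11, encoding the proapoptotic protein Bim, had 128, 112, 104 and 159 against 223, 223, 233 and 251 (0.90, SE 0.19, adjusted p = 0.0495) and was the 1 called gene among 21 of the Bcl2 family list (median 0.25). With Clec2d above 30 alone these log2 fold changes were 1.33 for Syn2, 1.26 for Smim3, 1.62 for Gcc1, 1.39 for Rab20 and 0.93 for Bcl2l11.

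**Figure D2:**
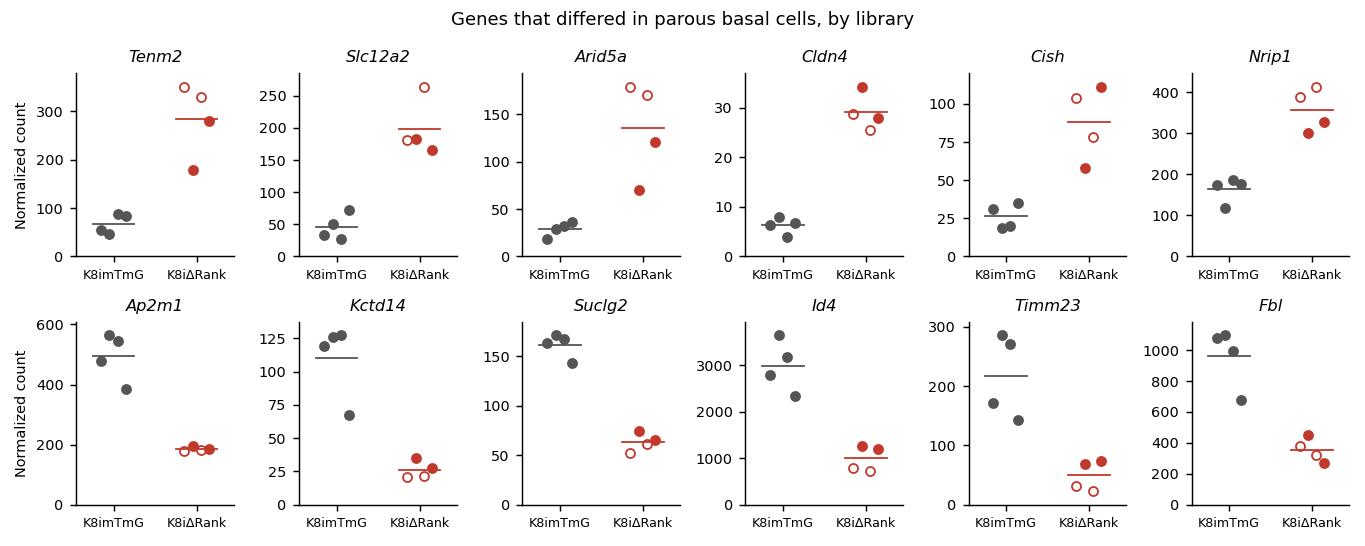
Normalized counts of 12 genes called in parous basal cells, by library, with K8imTmG in grey and K8iΔRank in red, and a line at each group's mean. Filled points are libraries with Clec2d above 30 and open points libraries below it. In every panel all 4 K8iΔRank libraries lie on 1 side of all 4 controls. For Tenm2, Arid5a, Nrip1, Kctd14, Suclg2, Id4 and Timm23, and by little for Ap2m1, the open points lie farthest from the controls.

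The genes called lower with the lowest adjusted p also had varied roles. Ap2m1, the cargo-binding subunit of the clathrin adaptor AP-2 (chr16:20354186-20366675, plus strand), had 479, 564, 545 and 385 normalized counts in the controls and 178, 195, 182 and 184 in K8iΔRank (log2 fold change -1.40, SE 0.18, adjusted p = 0.016). The K8iΔRank values lay close together, and the difference was -1.36 with Clec2d above 30 and -1.43 below. Suclg2, a subunit of succinyl-CoA ligase in the citric acid cycle, had 163, 171, 167 and 143 against 52.3, 74.9, 61.2 and 65.2 (-1.34, SE 0.19, adjusted p = 0.0205). Kctd14, a protein with a BTB domain, had 119, 126, 127 and 67.1 against 20.6, 35.1, 21.6 and 27.9 (-2.01, SE 0.27, adjusted p = 0.016). Pdgfb, a platelet-derived growth factor chain, had 132, 211, 215 and 226 against 65.2, 68.5, 40.5 and 81.7 (-1.61, SE 0.26, adjusted p = 0.035). Hyal2, a hyaluronidase at the cell surface, fell by 1.35 (SE 0.24, adjusted p = 0.0436). With Clec2d above 30 alone the log2 fold changes were -1.19 for Suclg2, -1.73 for Kctd14, -1.35 for Pdgfb and -1.12 for Hyal2.

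Id4 was the called gene among the basal markers. This helix-loop-helix inhibitor (chr13:48414558-48419502, plus strand) is known for keeping basal mammary cells in the basal state. It had 2792, 3654, 3189 and 2336 normalized counts in the controls and 796, 1275, 732 and 1202 in K8iΔRank (log2 fold change -1.60, SE 0.25, adjusted p = 0.035). The groups did not overlap, and the difference was -1.25 with Clec2d above 30 and -1.95 below. Id4 stayed a basal gene in both genotypes, with at most 13.4 normalized counts in parous luminal libraries. The other 27 of 28 basal markers did not pass, 11 of the 28 lay above 0 and their median was -0.09, against 0.06 over all genes tested. The median of the basal list was -0.19 with Clec2d above 30 and -0.12 below. Leaving out 1 library gave -0.17 to 0.02, the latter without K8iΔRank mouse 794. Nrg2, a ligand of ErbB receptors made by basal cells, had 132, 123, 91.6 and 70.5 in the controls and 39.9, 41.4, 22.01 and 54.8 in K8iΔRank (-1.40, SE 0.30, adjusted p = 0.0495, and -1.07 with Clec2d above 30).

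Several of the lower genes serve ribosomes, mitochondria or the proteasome. Fbl, the rRNA methyltransferase of the nucleolus (chr7:27868353-27878701, plus strand), had 1080.1, 1097, 991 and 677 normalized counts in the controls and 382, 454, 319 and 269 in K8iΔRank (log2 fold change -1.43, SE 0.23, adjusted p = 0.035). Its difference was -1.43 on either side of the Clec2d limit. Timm23, a channel of protein import into mitochondria, had 172, 286, 271 and 143 against 32.2, 68.5, 23.8 and 74.5 (-2.20, SE 0.36, adjusted p = 0.035) and depended more on the libraries, at -1.54 above and -2.87 below the limit. Rps6, a protein of the small ribosomal subunit, had 2199.9, 2172, 2767 and 1247 against 819, 755, 651 and 809.6 (-1.41, SE 0.25, adjusted p = 0.0436). Mrpl22, of the mitochondrial ribosome, had 73.3, 72.2, 104 and 45.5 against 16.3, 27.9, 21.6 and 25.9 (-1.61, SE 0.28, adjusted p = 0.0436). Psma5, a proteasome subunit, fell by 1.62 (SE 0.31, adjusted p = 0.0436) as the only member called of 37 proteasome genes (median -0.16). With Clec2d above 30 alone Rps6 and Mrpl22 were each at -1.36 and Psma5 at -1.08.

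Of 81 cytosolic ribosomal protein genes tested, 7 were called and all 7 were lower (Rps6, Rps12, Rpl10, Rps24, Rpl27a, Rpl27 and Rps27a), and none of the 81 lay above 0. Their median log2 fold change was -1.14, and 65 of 81 had groups that did not overlap, against 12% of all genes tested. Rps12, the highest of those called, had 26576, 27984, 38795 and 15139 normalized counts in the controls and 4652, 10419, 4323 and 7349 in K8iΔRank (-2.04, SE 0.39, adjusted p = 0.0436, and -1.55 with Clec2d above 30). DESeq2 called 60 of the 81 lower, against 3.87% of all genes called lower by that tool. These values moved with the libraries. Ribosomal protein genes took 18.6 to 23.7% of reads in the controls, 16.3 and 13.3% in K8iΔRank mice 794 and 830 and 8.82 and 7.95% in mice 787 and 798. The median of the list was -0.63 with Clec2d above 30 and -1.56 below, and the list also lay lower in virgin basal cells (-1.29) and parous luminal cells (-0.62) of K8iΔRank mice. The part of library composition in the ribosomal values was not tested. Of 144 pseudogenes tested 1 was called, lower, and 18 lay above 0 (12.5%, against 53.8% of all genes tested). The median of the pseudogenes also moved with the libraries, at -0.44 with Clec2d above 30 and -1.25 below. Several of the ribosomal protein genes have near-identical pseudogene copies, and their counts are uncertain to that extent.

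Mitochondrial genes showed the same dependence. Among 23 mitochondrially encoded genes 3 were called, all lower, namely mt-Atp6 (log2 fold change -1.51, SE 0.29, adjusted p = 0.0436), mt-Nd3 (-1.44, adjusted p = 0.0468) and mt-Co3 (-1.21, adjusted p = 0.0495). Their values with Clec2d above 30 were -1.11, -0.92 and -0.86. The list median was -0.89, or -0.48 with Clec2d above 30 and -1.42 below. Of 75 nuclear subunits of oxidative phosphorylation only Atp5l was called (-1.28, SE 0.27, adjusted p = 0.0495, and -1.09 with Clec2d above 30), with 9 of 75 above 0 and a median of -0.63, which was -0.22 with Clec2d above 30. Of 76 mitochondrial ribosomal proteins only Mrpl22 was called (median -0.35).

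**Figure D3:**
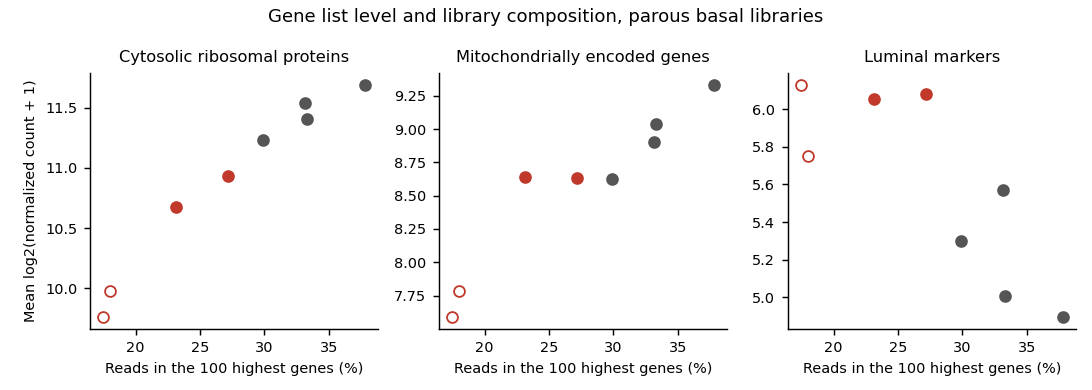
The share of reads in the 100 highest genes of each parous basal library (horizontal axis, percent) is set against the mean log2 of normalized count plus 1 over cytosolic ribosomal proteins, mitochondrially encoded genes and luminal markers (vertical axis). Controls are grey and K8iΔRank red, with open points for Clec2d below 30. The ribosomal and mitochondrial levels are lowest in the 2 open points, while for the luminal markers all 4 K8iΔRank libraries lie at 5.75 to 6.13, above the controls at 4.90 to 5.57.

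Luminal markers lay mostly above 0 in basal cells of K8iΔRank mice, and 1 of them passed the test. Of 15 shared luminal markers tested, Cldn4 was called and 13 of 15 lay above 0, against 53.8% of all genes tested. The median log2 fold change was 0.63, against 0.06 over all genes. It was 0.64 with Clec2d above 30 and 0.56 below. The summed level of the list was 1760 to 2239 normalized counts in the controls and 2493 to 2764 in K8iΔRank, without overlap, against 8258 to 13345 in parous luminal libraries. The medians of the same list were 0.03 in virgin basal cells, where Clec2d separated the genotypes, and 0.07 in parous luminal cells. Whether the list differed between stages or lineages was not tested. Endothelial and pericyte markers, a list of another cell type, had a limma median of similar size in parous basal cells (0.56, 9 of 11 above 0, 0 called). Their median was 0.28 with DESeq2 and 0.26 with edgeR, where that of the shared luminal markers was 0.58 and 0.60. In bulk libraries more cells of a type and more RNA per cell cannot be told apart.

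Keratin genes of the luminal layer showed this pattern unevenly. Krt18 had 50.2, 66.9, 87.6 and 129.7 normalized counts in the controls and 196, 168, 238 and 146 in K8iΔRank, and missed the threshold (log2 fold change 1.22, SE 0.28, adjusted p = 0.0538). Its dimer partner Krt8, whose promoter drove Cre here, had 329, 313, 247 and 339 against 341, 381, 383 and 355 (0.26, SE 0.18, adjusted p = 0.398), a narrow separation of the groups. Krt7 (1.46, SE 0.45, adjusted p = 0.102) and Krt19 (1.44, SE 0.47, adjusted p = 0.11) did not pass.

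Luminal progenitor markers also lay mostly above 0. None of 18 tested was called, 17 of 18 lay above 0 (against 53.8% of all genes), and the median was 0.55 (0.58 with Clec2d above 30). Their summed level was 2345 to 2728 normalized counts in the controls and 3018 to 4412 in K8iΔRank. Plet1, a surface protein of progenitor cells, had 16.7, 10.7, 7.96 and 25.03 against 34.3, 39.9, 50.2 and 76.6 without overlap (log2 fold change 1.72, SE 0.37, adjusted p = 0.0518). Ltf, the iron-binding lactotransferrin of alveolar-lineage cells, had 2.09, 8.02, 0 and 22.8 against 18.4, 32.7, 40.1 and 38.8 and overlapped (2.66, SE 0.78, adjusted p = 0.0878). Kit, the stem cell factor receptor, was not higher in every library, with 3.00 in K8iΔRank mouse 787 inside the control range (1.57, SE 0.78, adjusted p = 0.254). Elf5, the transcription factor that specifies alveolar cells, was at 2.67 to 8.37 in the controls and 3.86 to 9.83 in K8iΔRank, too low to be tested, against 110.4 to 345 in parous luminal libraries.

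Hormone-sensing markers were 14 of 20 tested, none called, with 12 of 14 above 0 (against 53.8% of all genes) and a median of 0.49. The median was 0.54 with Clec2d above 30 and 0.26 below, and it moved from 0.12 without control mouse 532 to 0.75 without control mouse 534. With DESeq2 it was 0.23 and with edgeR 0.24. Prlr, the prolactin receptor, had 4.19, 42.8, 7.96 and 41.0 normalized counts in the controls and 26.6, 98.8, 165 and 94.7 in K8iΔRank, which overlap (log2 fold change 2.25, SE 0.69, adjusted p = 0.0989). The progesterone receptor gene Pgr did not pass (0.27, SE 0.25, adjusted p = 0.535). Summed levels of this list overlapped between the groups, at 324 to 642 in the controls and 453 to 821 in K8iΔRank. Tnfsf11 and Spdef, defining markers of these cells, were at 0 in all 4 controls, which were shallower than the K8iΔRank libraries.

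Prolactin and cytokine feedback was represented by 1 call. Cish, the Stat5-induced inhibitor whose promoter window holds a pair of Stat motifs (gene at chr9:107173225-107179983, plus strand), had 31.4, 18.7, 19.9 and 35.3 normalized counts in the controls and 104, 58.2, 78.3 and 111 in K8iΔRank (log2 fold change 1.71, SE 0.29, adjusted p = 0.0382). Every K8iΔRank library was above every control, and the difference was 1.63 with Clec2d above 30. Of 32 Jak-Stat genes tested Cish was the member called, with 21 of 32 above 0 (against 53.8% of all genes) and a median of 0.27. DESeq2 called 4 of the 32 higher, against 2.22% of all genes tested. Socs2, another Stat5 target, had 113, 123, 51.8 and 114 against 302, 112, 257 and 245, so that mouse 794 lay among the controls (1.17, SE 0.34, adjusted p = 0.0872). Lifr, the receptor of leukaemia inhibitory factor, had 172, 211, 183 and 249 against 326, 336, 563 and 305 (0.87, SE 0.23, adjusted p = 0.0705). The interleukin receptor gene Il4ra had a log2 fold change of 1.06 (SE 0.31, adjusted p = 0.0872).

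Milk genes were not called. Of 12 tested 0 passed, 8 of 12 lay above 0 and the median was 0.26, or 0.06 with Clec2d above 30. Csn2, β-casein, had 77.4, 66.9, 3.98 and 22.8 normalized counts in the controls and 66.1, 4.78, 7.92 and 15.0 in K8iΔRank, with complete overlap of the ranges (log2 fold change -0.88, SE 0.87, adjusted p = 0.567). Csn1s1 (-0.64, SE 0.62, adjusted p = 0.557), Csn1s2a (-1.76, SE 1.06, adjusted p = 0.336) and Csn3 (0.54, SE 0.46, adjusted p = 0.506) lay on both sides of 0. In the 2 libraries with Clec2d above 30 Csn2 was at -1.55 and Csn1s2a at -3.49. Lalba, the whey protein cofactor of lactose synthesis, was too low to be tested. Published alveolar signatures were used as the study's supplement lists them. The study applied the luminal alveolar set to these basal samples and showed the alveolar differentiation set in its luminal ones. The signatures are not independent evidence of a direction. They gave 0 calls of 41 (median -0.20) for the alveolar differentiation set. For the luminal alveolar set they gave 2 of 172, Cldn4 and the coenzyme Q protein gene Coq10b (1.21, SE 0.25, adjusted p = 0.0495, and 1.41 with Clec2d above 30). The median of that set was 0.26, with 116 of 172 above 0, against 53.8% of all genes tested.

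Genes of the Rank pathway itself were not called. Of 35 tested 0 passed, 18 lay above 0 and the median was 0.02. That median was 0.08 with Clec2d above 30 and 0.23 below, and leaving out 1 library gave 0.01 to 0.21. DESeq2 called 2 higher and 2 lower, against 2.22% and 3.87% of all genes tested. Sqstm1, the p62 adaptor that binds Traf6, had 337, 238, 303 and 524 normalized counts in the controls and 617, 601, 616 and 607 in K8iΔRank, without overlap (log2 fold change 0.86, SE 0.23, adjusted p = 0.076). Nfkbia, the inhibitor of NF-κB whose own promoter holds the motif shown, had 4134, 2771, 2759 and 2847 against 1275, 2456, 1531 and 1344, also without overlap (-0.95, SE 0.26, adjusted p = 0.0816). Nfkb2, of the non-canonical arm, had 52.3, 56.2, 55.7 and 53.5 against 164, 60.6, 78.3 and 65.7. Its groups were apart but the size rested on mouse 787 (0.63, SE 0.29, adjusted p = 0.22), being 0.21 with Clec2d above 30. Nfkb1 (-0.18, adjusted p = 0.716), Rela (0.77, SE 0.26, adjusted p = 0.117), Relb (-0.30, adjusted p = 0.481), the adaptor gene Traf6 (0.12, adjusted p = 0.852) and the kinase gene Akt1 (-0.67, SE 0.19, adjusted p = 0.0829) did not pass.

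Downstream of these factors, 3 of 151 NF-κB response genes were called by limma, all higher, against 0.312% of all genes tested. Of the 151, 102 lay above 0 (against 53.8% of all genes), with a median of 0.32 (0.32 with Clec2d above 30 and 0.26 below). DESeq2 called 14 of the 151 higher and 5 lower, against 2.22% and 3.87% of all genes. The median was 0.15 without control mouse 557 and 0.28 to 0.43 without any other library. Nr4a2, an orphan nuclear receptor induced early by many stimuli, had 105, 126, 43.8 and 122 normalized counts in the controls and 530.2, 179, 463 and 379.7 in K8iΔRank (log2 fold change 1.96, SE 0.38, adjusted p = 0.0436, and 1.50 with Clec2d above 30). Cdkn1a, the p21 inhibitor of the cell cycle, had 81.6, 77.6, 47.8 and 91.0 against 299, 140.3, 297 and 147 (1.50, SE 0.30, adjusted p = 0.0436), with the 2 low-Clec2d libraries the highest (2.03 in them and 0.98 in the others). Klf9, a progesterone- and glucocorticoid-responsive factor, rose from 163, 227, 131 and 283 to 474, 347, 482 and 436 (1.16, SE 0.24, adjusted p = 0.0495, and 1.01 with Clec2d above 30). Bcl3, an atypical IκB protein, had 33.5, 42.8, 35.8 and 35.3 against 136, 53.4, 107 and 82.2 and missed the threshold (1.26, SE 0.27, adjusted p = 0.052).

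**Figure D4:**
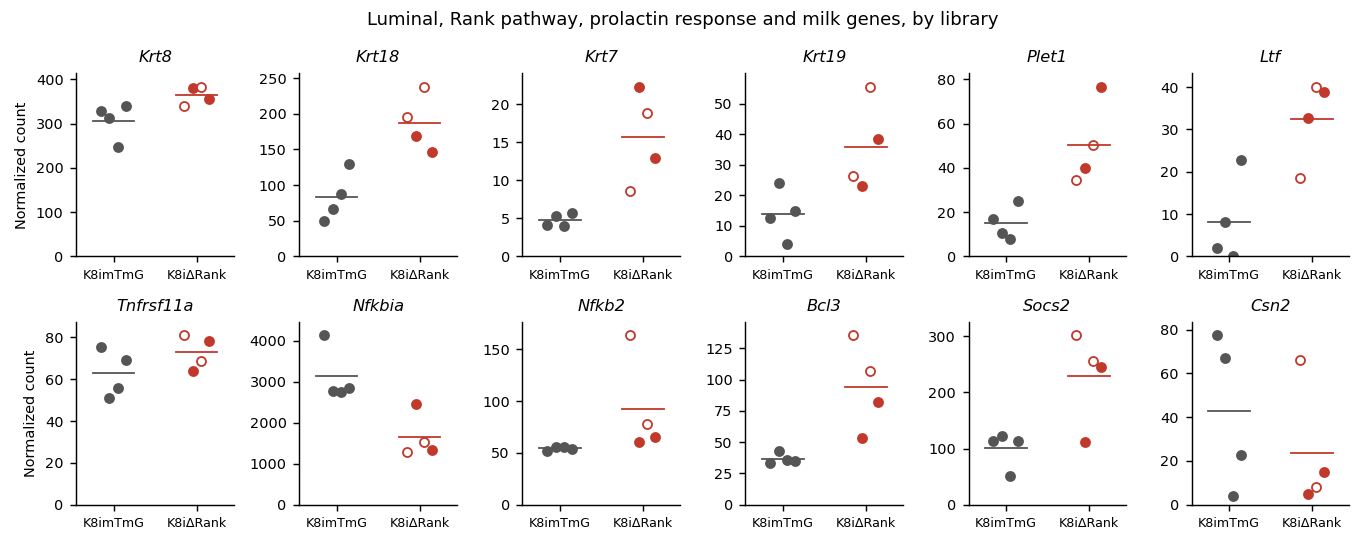
Normalized counts of 12 luminal, Rank pathway, prolactin response and milk genes in parous basal cells, by library, in the same colours and symbols as for the called genes. None of these genes was called. Krt8, Krt18, Krt7, Plet1, Nfkbia, Nfkb2 and Bcl3 have groups that do not overlap, whereas Krt19, Ltf, Tnfrsf11a, Socs2 and Csn2 overlap.

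Other signalling, matrix and antigen presentation lists held few calls. Basement membrane genes (0 of 40 called, median 0.11), MHC class I genes (0 of 21, median 0.06) and MHC class II genes (0 of 8, median 0.39) gave none. Leaving out 1 library turned the sign of the first 2 medians, with ranges of -0.04 to 0.24 for basement membrane (below 0 without K8iΔRank mouse 830) and -0.08 to 0.11 for MHC class I (below 0 without control mice 532, 557 or 558 or K8iΔRank mice 787 or 830). Among 23 Notch genes (median 0.15) and 38 Wnt genes (median 0.22, or 0.17 with Clec2d above 30 and 0.06 below) 0 were called, with Notch1 at 0.76 (adjusted p = 0.0926), Tcf7l2 at 1.05 (adjusted p = 0.0538) and Axin2, a feedback target of Wnt signaling, at -1.50 (adjusted p = 0.0884). Leaving out 1 library gave Wnt medians of 0.035, without control mouse 532, to 0.17, without K8iΔRank mouse 794. Of 36 Tgf-beta genes Id4 was called (median 0.17), and Skil stood at 0.72 (adjusted p = 0.064). Of 16 ErbB genes 0 were called (median 0.22, or 0.03 with Clec2d above 30), and Errfi1, a feedback inhibitor of the receptors, was at 1.11 (adjusted p = 0.131). Immediate early and AP-1 genes had 1 call of 28, Nr4a2 (median 0.27, or -0.03 without control mouse 557), with Fosl2 at 1.33 (adjusted p = 0.0606) and Ier5 at -1.04 (adjusted p = 0.064). Among 30 interferon-stimulated genes 0 were called (median 0.26), although the GTPase genes Igtp (1.24, SE 0.29, adjusted p = 0.0564) and Irgm1 (1.96, SE 0.49, adjusted p = 0.064) had groups that did not overlap.

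Cell cycle, lipid and stress lists lay near or below 0. Cdca7, a Myc target of S phase, had 161, 294, 163 and 105 normalized counts in the controls and 28.7, 74.9, 21.1 and 62.1 in K8iΔRank (log2 fold change -2.01, SE 0.40, adjusted p = 0.0436), and it was the 1 call of 33 S phase genes (median -0.24, -0.12 with Clec2d above 30 and -0.66 below). Of 44 G2 and M phase genes 0 were called, and the median was -0.23 with all libraries and 0.06 with Clec2d above 30. The S phase median ran from -0.81 without control mouse 557 to 0.10 without control mouse 534, and was -0.63 with DESeq2. The G2 and M phase median ran from -0.69 without K8iΔRank mouse 830 to 0.16 without control mouse 534, and was -0.62 without control mouse 557. Mki67 ranged from 0 to 61.5 in the controls and from 0.797 to 71.4 in K8iΔRank (0.57, SE 1.29, adjusted p = 0.822). Of 36 genes of fat and sterol synthesis 2 were lower, Msmo1 (-1.37, SE 0.26, adjusted p = 0.0436) and Elovl5 (-1.03, SE 0.20, adjusted p = 0.0436), around a median of -0.12. With Clec2d above 30 alone Cdca7 was at -1.29, Msmo1 at -1.42 and Elovl5 at -0.79. Msmo1, a sterol oxidase of cholesterol synthesis, had 58.6, 118, 59.7 and 67.1 in the controls and 27.9, 30.3, 28.6 and 23.3 in K8iΔRank. Chaperone genes of the heat shock list gave 0 calls of 25 (median -0.09, or 0.02 without control mouse 534) and those of the secretory pathway 0 of 43 (median -0.17), with Hyou1 at -1.19 (adjusted p = 0.0564) and Hspe1 at -1.60 (adjusted p = 0.0594). The alveolar differentiation, basal, heat shock, S phase, G2 and M phase, secretory, fat and sterol, and proteasome lists, whose medians were below 0, had medians of 0.02 to 0.30 when reads were thinned to equal depth and scaled by their total, a scaling that moved the median of all genes from 0.06 to 0.34. The ribosomal median was -0.79 there and -0.48 with quantile normalization, which also brought the mitochondrially encoded median to -0.31.

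**Figure D5:**
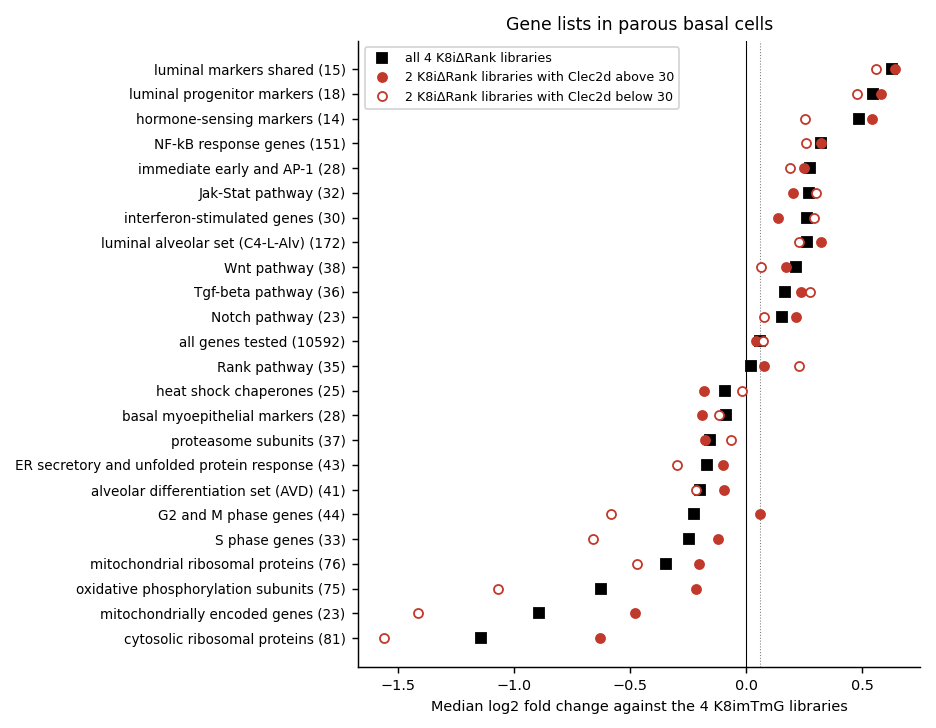
Median log2 fold change in parous basal cells (horizontal axis) of 23 gene lists and of all genes tested, with the number of genes in brackets. Squares use all 4 K8iΔRank libraries, filled circles the 2 with Clec2d above 30 and open circles the 2 below, each against all 4 controls. The luminal lists lie near 0.5 to 0.6 in most sets of libraries, whereas the ribosomal and mitochondrial lists lie closer to 0 in the filled circles than in the open ones.

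Markers of other cell types were read in both groups. The sort removed CD45+ and CD31+ cells, which carry leukocyte and endothelial surface proteins. Fibroblast markers, of which 12 of 15 were in the table, summed to 1669 to 2453 normalized counts in the controls and 1450 to 2205 in K8iΔRank, against 137 to 600.3 in the parous luminal libraries, and 0 of 12 were called (median -0.06, and above 0 without control mice 557 or 558 or K8iΔRank mouse 787). Leukocyte markers, of which only 5 of 30 were in the table, summed to 72.8 to 139 and 70.9 to 132. Endothelial markers summed to 227 to 361 and 286 to 435 (median 0.56 over 11 genes, 0 called), and adipocyte markers to 287 to 603 and 265 to 1022. The part of these cells in the results was not tested. Some other genes fixed by name did not pass. The axon guidance gene Ntn4 was at 23.02, 37.4, 31.9 and 42.1 against 102, 82.1, 226 and 42.9 (log2 fold change 1.51, SE 0.41, adjusted p = 0.0772). Masp1 was at 0.21 (adjusted p = 0.818), Snorc at 2.53 (adjusted p = 0.13) and Rspo1 at 0.57 (adjusted p = 0.65).

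Whether the genotype difference of parous basal cells was particular to the parous stage was asked with the 7 virgin basal libraries. No gene of 10607 passed limma for a difference between the stages, with 1082 at an unadjusted p under 0.05, 18 called by DESeq2 and 0 by edgeR. The smallest p-values belonged to the haem exporter gene Flvcr1 (parous minus virgin difference 2.47, SE 0.45, adjusted p = 0.254) and to Utp14b (1.80, SE 0.34, adjusted p = 0.254). Utp14b, which serves ribosome biogenesis, was higher in parous K8iΔRank basal cells (94.0 to 133 against 42.8 to 67.0) and ran the other way in virgins (47.3 to 76.3 against 76.1 to 124). Cldn4 spread from 6.10 to 71.8 over virgin basal libraries of both genotypes (parous minus virgin difference 2.90, SE 0.82, adjusted p = 0.313). In virgin basal cells, which share no library with the parous comparison, 23 of the 33 higher genes had a positive log2 fold change (69.7%, against 52.8% of all genes tested) and 62 of the 63 lower genes a negative one (98.4%, against 47.2%). In the virgin libraries Clec2d separated the genotypes completely, at 2.03 to 8.68 in K8iΔRank and 149 to 165 in K8imTmG, so there genotype and the kind of library cannot be told apart.

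Whether the difference was particular to basal cells was asked with the 9 parous luminal libraries, which include the same mice. No gene of 10913 passed limma for a difference between the lineages, with 706 at an unadjusted p under 0.05, 12 called by DESeq2 and 2 by edgeR. Cldn4 (basal minus luminal difference 1.45, SE 0.34, adjusted p = 0.421) and Rab20 (1.73, SE 0.41, adjusted p = 0.421) were among the leading genes towards basal cells. Towards luminal cells stood Masp1 (-4.18, SE 0.73), Fgf2 (-2.96, SE 0.49) and Nrg2 (-2.63, SE 0.46), each with adjusted p = 0.0792. Fgf2 and Nrg2 were too low in parous luminal libraries to be tested there, so their differences rest on low luminal values. In basal cells alone their log2 fold changes were 0.30 and -1.40. Masp1 was at 4.85 to 31.2 in control and 148 to 265 in K8iΔRank luminal libraries and overlapped between the genotypes in basal cells. Of the 33 higher genes 29 were also tested in luminal cells and 25 of them had a positive difference there (86.2%, against 52.3% of all genes tested), and of the 63 lower genes 57 of 59 had a negative one (96.6%, against 47.7%). All 4 K8iΔRank luminal libraries had Clec2d under 30, at 1.97 to 2.28. Among the luminal controls Clec2d was 90.7 and 125 in mice 494 and 557 and 1.76 to 4.80 in the other 3, so the split was partly aligned with genotype there.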

How the data were processed

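Basal and luminal cells were sorted from mammary glands, and RNA was sequenced from transcript 3′ ends with QuantSeq FWD libraries carrying unique molecular identifiers, which read the sense strand. Per the methods and labels, the authors trimmed reads with BBDuk, aligned them to GRCm39 with Bowtie2, collapsed identifiers with UMI-tools and checked quality with FastQC 0.11.9. The deposited values are counts divided by the authors' DESeq2 size factors, a normalized signal of 11137 genes in 30 libraries. Every value was a whole multiple of what 1 read was worth in its library, so the whole reads were recovered (100% whole) and gave the depth of each library. RNA integrity varied between samples per the methods and is not given by library.

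Differences were tested with limma 3.58.1 with a mean-variance trend on log2(normalized count + 1) for genes that exceeded 10 in 25% or more of the libraries in a fit. P-values were adjusted by the Benjamini-Hochberg method across the genes of a fit and called under 0.05. Fold changes are on that scale, and those of low genes can lie below or above those of the count tests. Cldn4 was at 2.07 with limma and 2.14 with DESeq2, but the hormone-sensing median was 0.49 with limma and 0.23 with DESeq2. DESeq2 1.42.0 and edgeR 4.0.16 were run on the recovered reads as alternatives, as the deposited values are not counts. Other pseudocounts, filters, normalizations, weights, thinning to 450064 reads, leaving out each library and fits by Clec2d were also tried. Interactions used all 15 basal libraries, or all 8 basal and 9 luminal parous libraries. Basal and luminal cells of 1 mouse come from the same animal, and their deviations from group means correlated at -0.19 to 0.28 over genes.

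Named genes are up to 12 called genes a direction with the lowest adjusted p and groups that do not overlap (those whose higher group had a mean under 20 are left out), up to 4 members of each list by the size of the moderated statistic, up to 3 genes a direction for each interaction, and genes fixed by name. Members and lists were chosen with earlier results of these data known. A few members, among them Cldn4 in the stage comparison, were named after their values were seen. Gene positions come from GENCODE vM39, in which 10898 genes had a single entry. A few genes are not reported here. The scripts were tested on simulated data. Analyses used R 4.3.3, Python 3.11.15, pandas 2.3.3, numpy 2.4.6 and matplotlib 3.10.9. P-values measure the spread between single mice.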

Additional observations from a re-analysis of the deposited data

Results flagged for a closer look

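In 11 of 230 gene groups of 4 parous basal libraries examined, 1 library stood apart from the other 3 by Dixon's criterion, which chance meets in about 1 group in 20. Among the controls, mouse 557 had low Socs2 (51.8 normalized counts) and Tcf7l2 (107). Control mouse 532 had high Nfkbia (4134) and low Pdgfb (132), mouse 558 had low Kctd14 (67.1) and Akt1 (150.2), and mouse 534 had low Nrip1 (118). Among K8iΔRank libraries, Kit was low in mouse 787 (3.00), Coq10b was high in mouse 830 (205), Lifr was high in mouse 798 (563) and Ier5 was high in mouse 794 (1119). For the called genes Kctd14, Pdgfb, Nrip1 and Coq10b the library that stood apart still lay on its group's side of the other group.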

How the results depend on the processing

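The number of genes called in parous basal cells moved with most settings, and stayed within 1.5 times of 96 for a pseudocount of 0.5 (78), quantile normalization (64) and edgeR (67). It was 186 with a pseudocount of 4, 11 with no filter, 275 with a mean of at least 50, 2572 with array quality weights, 645 with DESeq2 and 170 with all 15 basal libraries in the fit. Higher genes were 34.4% of the calls and 81.7% of the 431 called when reads were thinned to equal depth and scaled by their total (223 with median-ratio factors), and 48.1% with weights. Leaving out 1 library gave 0 to 1050. With K8iΔRank libraries above 30 for Clec2d, limma and edgeR called 0 and DESeq2 135. With Clec2d as a covariate limma called 0 (1156 at an unadjusted p under 0.05), and with K8iΔRank libraries below 30 it called 2138. The last 2 fits, the median-ratio factors and the DESeq2 and edgeR fits by Clec2d were chosen after seeing the data. For stage, DESeq2 called 18 and all fits without 1 library 0. For lineage, array quality weights called 403, DESeq2 12 and edgeR 2, and leaving out 1 library gave 0 to 1, with 1 without luminal control 494 or 558. The mouse as a replicate block called 0, with 1181 at an unadjusted p under 0.05, and changed no call. The cause of these shifts was not tested.

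Some genes that were not called changed sign in log2 fold change. With Clec2d above 30 (limma and the covariate fit, then DESeq2, then edgeR), Tnfrsf11b was 0.15, 0.23 and 0.23, Trp63 0.092, 0.049 and 0.051, Nfkb1 0.20, 0.16 and 0.16 and Masp1 -0.43, -0.49 and -0.47, and Rspo1 was -0.0099 with the covariate. Below 30, Csn1s1 was 0.26, Csn3 -0.057, Nkd2 0.22, Phf5a 0.13 and Slc35b1 0.072. Thinned to equal depth, Tnfrsf11b was 0.040, Trp63 0.34, Nfkb1 0.026, Nkd2 0.21, Phf5a 0.47 and Slc35b1 0.021, and with median-ratio factors Trp63 was 0.0057, Phf5a 0.13 and Fgf2 -0.074. Quantile normalization gave Krt5 0.016, Krt14 0.25 and Acta2 0.30. Nkd2 was 0.038 with array quality weights, 0.012 with DESeq2 and 0.039 with edgeR, and Phf5a 0.021 with weights. Leaving out 1 library gave -0.39 to 0.17 for Tnfrsf11b, -0.18 to 0.017 for Trp63, -0.028 to 0.40 for Traf6, -0.51 to 1.55 for Mki67, -0.14 to 0.59 for Masp1, -0.49 to 0.22 for Nkd2 and -0.24 to 0.021 for Phf5a. Over the other settings, named genes kept their side of the threshold in 1937 values, lost it in 490 and passed it in 211. Depth limits low genes most, since 3 reads in the shallowest control amount to 11.9 normalized counts, above the filter of 10. The medians of MHC class II genes and leukocyte markers could not be given under a mean of at least 50, as too few of their genes were left.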
